A study of Mus musculus with 7 samples.

Results

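The SLC25 genes encode the mitochondrial carrier family, and all protein-coding genes whose symbol starts with Slc25a were taken from the deposited count table by name. Of 53715 gene identifiers in the table, 47 were such genes. The uncoupling proteins Ucp1 to Ucp3 belong to the same family by structure but were not counted as members. The tissue was interscapular brown fat, which burns fuel to make heat, taken from 10-week-old male mice of the strain C57BL/6J. The groups compared were Wild-type (WT, 3 libraries) and PGAM5 KO (KO, 3 libraries). PGAM5 is a phosphatase of mitochondria. How the allele was made is not given in the sources used here, and a further library of the KO group was not analysed here. Nothing in the labels says that the libraries of a group came from separate animals, so the p-values measure only the spread between these libraries, which may be technical.

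Carriers of this family sit mostly in the inner mitochondrial membrane, which small charged molecules do not cross unaided. Each is built from repeats of a short domain and usually swaps one metabolite for another or moves it together with a proton. In brown adipocytes they bring in ADP, phosphate, acylcarnitines, amino acids and cofactors for oxidation, and send out citrate for the making of fatty acids. The question the comparison addresses is how gene expression in brown fat differs when PGAM5 is lost.

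The stretches of 250 bases upstream of the transcription start are shown for 3 members on which the results turn: Slc25a34 and Slc25a22, which had the largest KO to WT differences, and Slc25a1, whose level varied most among the abundant members. They are RefSeq sequences (GRCm38.p6), printed 5′ to 3′ on the strand of the gene. Capitals mark matches on either strand to the motifs searched. The E-box was searched as CACGTG and the GC box as GGGCGG. The nuclear receptor hexamer was searched as AGGTCA and the cAMP response element as TGACGTCA. The CCAAT box was searched by the letters of its name, and the TATA box as TATAAA. No match of one motif overlapped a match of another in these stretches.
Slc25a34, chr4:141623835-141624084, minus strand: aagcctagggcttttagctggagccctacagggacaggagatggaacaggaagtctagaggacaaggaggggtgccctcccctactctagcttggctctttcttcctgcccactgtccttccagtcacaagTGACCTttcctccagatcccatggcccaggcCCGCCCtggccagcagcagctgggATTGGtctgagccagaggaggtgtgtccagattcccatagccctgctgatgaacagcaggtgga
Slc25a22, chr7:141437875-141438124, minus strand: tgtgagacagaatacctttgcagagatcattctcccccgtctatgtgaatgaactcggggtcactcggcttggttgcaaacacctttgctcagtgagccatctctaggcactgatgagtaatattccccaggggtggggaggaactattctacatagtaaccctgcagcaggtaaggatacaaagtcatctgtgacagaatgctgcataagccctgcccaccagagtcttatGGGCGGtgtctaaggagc
Slc25a1, chr16:17928220-17928469, minus strand: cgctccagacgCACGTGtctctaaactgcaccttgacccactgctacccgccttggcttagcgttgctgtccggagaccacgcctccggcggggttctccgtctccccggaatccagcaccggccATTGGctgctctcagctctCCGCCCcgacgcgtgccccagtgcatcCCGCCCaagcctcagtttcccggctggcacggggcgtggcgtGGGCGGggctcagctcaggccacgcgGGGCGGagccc

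These stretches differed in composition. That of Slc25a1 was 70.0% G and C and held an E-box, a CCAAT box and 4 GC boxes. That of Slc25a34 was 58.4% G and C and held a CCAAT box, a GC box and a nuclear receptor hexamer. That of Slc25a22 was 50.0% G and C and held 1 GC box. Slc25a22 has 3 starts in the RefSeq table, and the one nearest the annotated 5′ end of the gene is shown. RefSeq starts were found for 36 of the 47 members, 46 starts in all. The GC box occurred at 69.6% of these member starts and at 32.7% of all 32851 starts in the table. The E-box occurred at 17.4% and 6.02%, the CCAAT box at 45.7% and 33.8%, the nuclear receptor hexamer at 8.70% and 14.0%, the cAMP response element at 4.35% and 1.55%, and the TATA box at 4.35% and 12.4%. Median G and C content was 59.2% over the 36 members (mean of the starts of each) and 52.4% over all starts. Its part in the differences between these shares was not tested. A match describes the letters only and says nothing of binding.

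The libraries held 18034204 to 33617762 counts, and genes of the mitochondrial genome took 28.2% to 43.0% of them in 5 libraries and 19.7% in KO 3. The leading principal component (45.6% of the variance) set WT 2, at -65.0, and KO 3, at 66.8, far from the remaining libraries, which lay between -13.05 and 8.23. Several of the log2 fold changes below moved when both were left out, and values without them are given beside the results they touch most. Counts of Pgam5 itself were 167, 122 and 186 in the WT libraries, against 1, 3 and 11 in the KO libraries. The brown adipocyte genes Ucp1 and Cidea were present in every library at 1376 CPM or more (counts scaled to a common library size). Summed CPM of 10 brown adipocyte markers was 13550 to 16990 in WT and 15610 to 17890 in KO. The sum does not stand for the list. Of the 10 markers, 4 had a positive log2 fold change (KO minus WT), where 49.8% of all genes did. Their median was -0.11, and 0 were called. The tissue is a mixture, so fewer cells of a type and less RNA per cell cannot be told apart.

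Of the 47 members, 42 had enough counts to be tested. Levels are compared between genes as RPKM, the scaled CPM divided by exon length in kilobases. The family summed to 1231 ± 44.8 RPKM (SD, n = 3) in WT and 1446 ± 207 RPKM (SD, n = 3) in KO, with KO 3 highest at 1684 and WT 2 lowest at 1185. The sums of the 2 groups did not overlap (WT 1185 to 1275, KO 1302 to 1684). Slc25a1 alone had 384 RPKM in KO 3, against 95.0 RPKM in KO 1 and 124 RPKM in KO 2. Among the most abundant members were Slc25a5, Slc25a1, Slc25a4, Slc25a51, Slc25a20, Slc25a39 and Slc25a42, and each of them is described with its cargo below. At the other end, 10 members lay under 0.5 RPKM. The order of levels was alike in the 2 genotypes (Spearman's rho of the mean RPKM over the 47 genes 0.988, across genes of the same libraries).

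**Figure D1:**
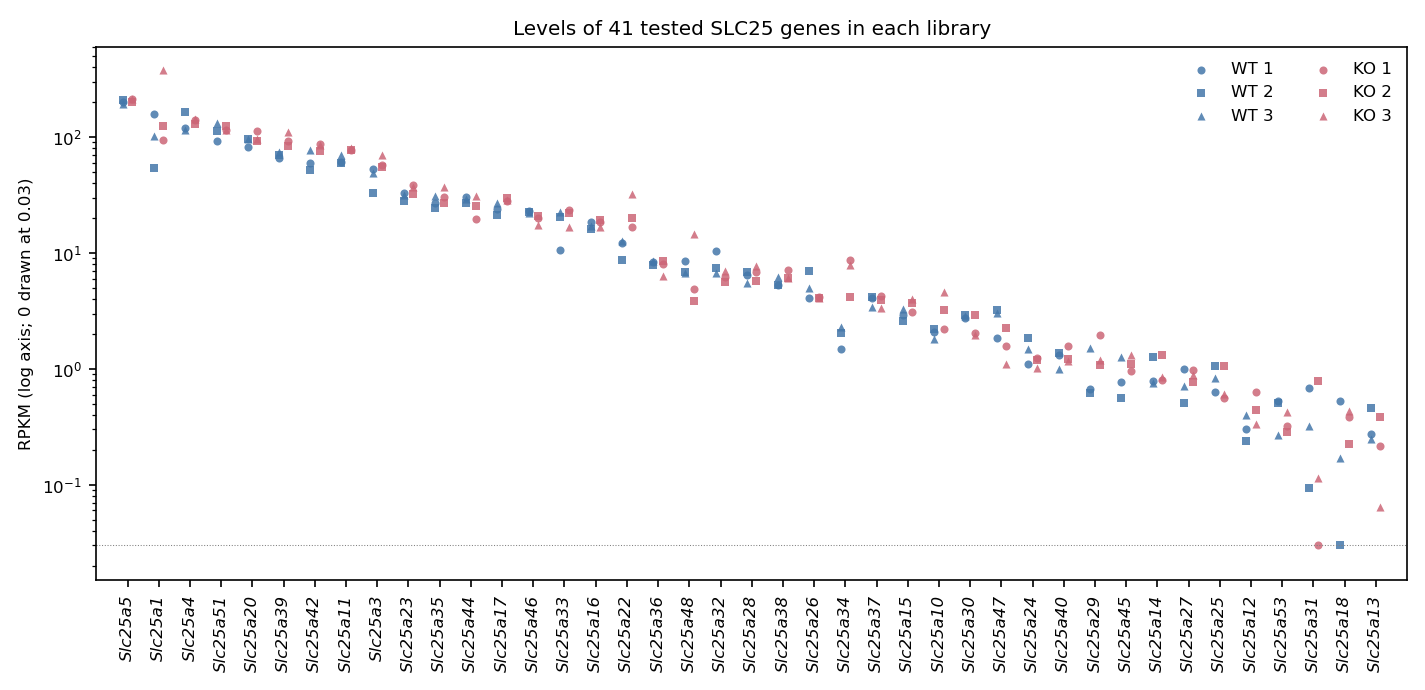
RPKM (log axis) of 41 tested SLC25 genes, ordered by mean level, with 1 point per library (WT blue, KO red). Levels run from about 200 RPKM for Slc25a5 to under 0.5 RPKM for Slc25a13, and Slc25a34 is the gene whose red points lie farthest above its blue points.

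The KO and WT libraries were compared with the edgeR quasi-likelihood test, and a gene was called when its p, adjusted over all 15123 genes tested, was under 0.05. Of the 42 tested members 0 were called, where 0.0595% of all genes were called (0.0198% higher and 0.0397% lower in KO). At an unadjusted p under 0.05 there were 4 members (Slc25a34, Slc25a22, Slc25a10 and Slc25a39), all higher in KO. That is 9.52% of the tested members, against 11.8% of all genes (6.30% higher, 5.49% lower). DESeq2 called 2 members, Slc25a34 and Slc25a22, both higher in KO and limma-voom called 0. Of all genes with a DESeq2 adjusted p, 0.566% were called higher and 0.553% lower. Without a filter on low counts edgeR called 3 members higher (Slc25a34, Slc25a22 and Slc25a1), where 1.18% of all genes were called higher and 1.19% lower. The groups did not overlap for 7 members, or 16.7%, against 19.5% of all genes. KO lay above WT for Slc25a34, Slc25a22, Slc25a39, Slc25a3, Slc25a11 and Slc25a17 (10.1% of all genes) and below it for Slc25a46 (9.39%). Log2 fold changes, KO minus WT, were positive for 28 of 42 members, against 49.8% of all genes. Their median was 0.11, beside -0.0019 for all genes tested. In size the members moved about as much as other genes, with a median absolute log2 fold change of 0.27 against 0.28.

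**Figure D2:**
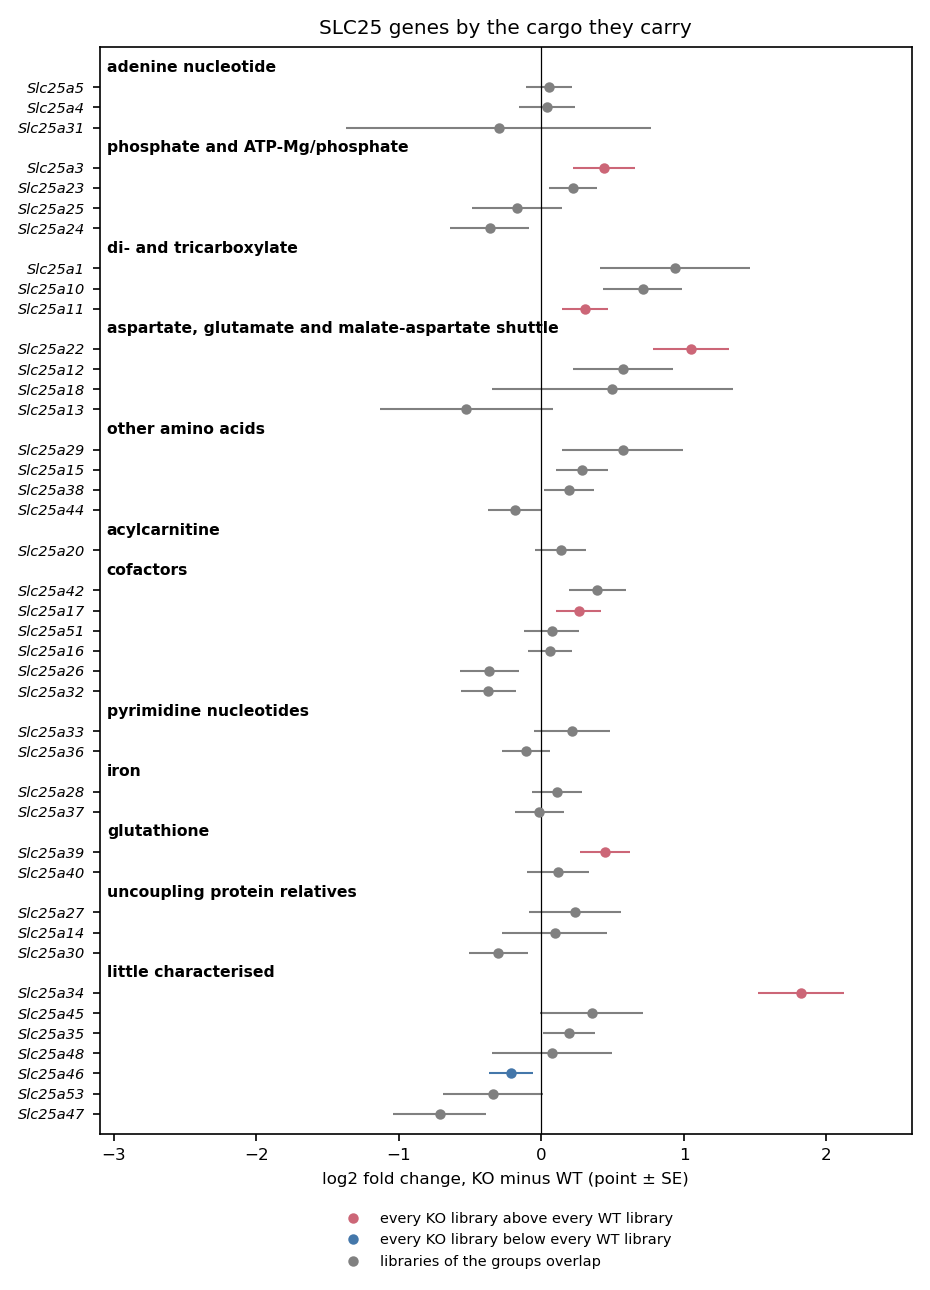
Log2 fold change (KO minus WT, with its SE) of 41 tested members, grouped by cargo. Red points mark the 6 genes whose KO libraries all exceeded the WT libraries, blue the 1 gene whose KO libraries were all lower, and grey the genes whose libraries overlap.

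Slc25a34, a carrier whose cargo is not settled, differed most. Its level was 4.00, 5.47 and 6.09 CPM in WT and 23.1, 11.1 and 20.9 CPM in KO. All KO libraries lay above all WT libraries, and the lowest KO value, that of KO 2, was still above the highest WT value. Means were 5.19 ± 1.07 CPM (SD, n = 3) and 18.4 ± 6.40 CPM (SD, n = 3), a ratio of 3.54. The log2 fold change was 1.82 (SE 0.30). It did not pass with edgeR (adjusted p = 0.148) and passed with DESeq2 (log2 1.81, adjusted p = 1.69e-05). With each library left out in turn it stayed between 1.63 and 2.08 (edgeR adjusted p 0.0689 to 0.407). Without both WT 2 and KO 3 it was 1.75 (edgeR adjusted p = 0.171). Among the 47 members it stood at place 30 by RPKM in WT and at place 21 in KO.

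Slc25a34 (ENSMUSG00000040740.7) lies on chromosome 4 from 141618824 to 141623821 (mm10), on the minus strand, and no exon of another annotated gene overlaps its exons. Its closest relative among the members by coding sequence is Slc25a35, also without a settled cargo, with 57.4% identical bases over the alignment. Slc25a35 did not pass (log2 0.20, SE 0.18, edgeR adjusted p = 0.648), with 89.8 to 115 CPM in WT and 99.7 to 135 CPM in KO. Rangrf, on the opposite strand, overlaps 1151 bases of the exons of Slc25a35 and had 88 counts in all against 15275 for Slc25a35. The ratio of Slc25a34 to Slc25a35 in RPKM was 0.0558, 0.0839 and 0.0729 in WT and 0.282, 0.153 and 0.213 in KO. Thus the share of the pair taken by Slc25a34 was larger in every KO library. Of the 17 tested genes within 0.5 Mb of Slc25a34, 2 had an unadjusted p under 0.05, both higher in KO, and 0 were called.

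**Figure D3:**
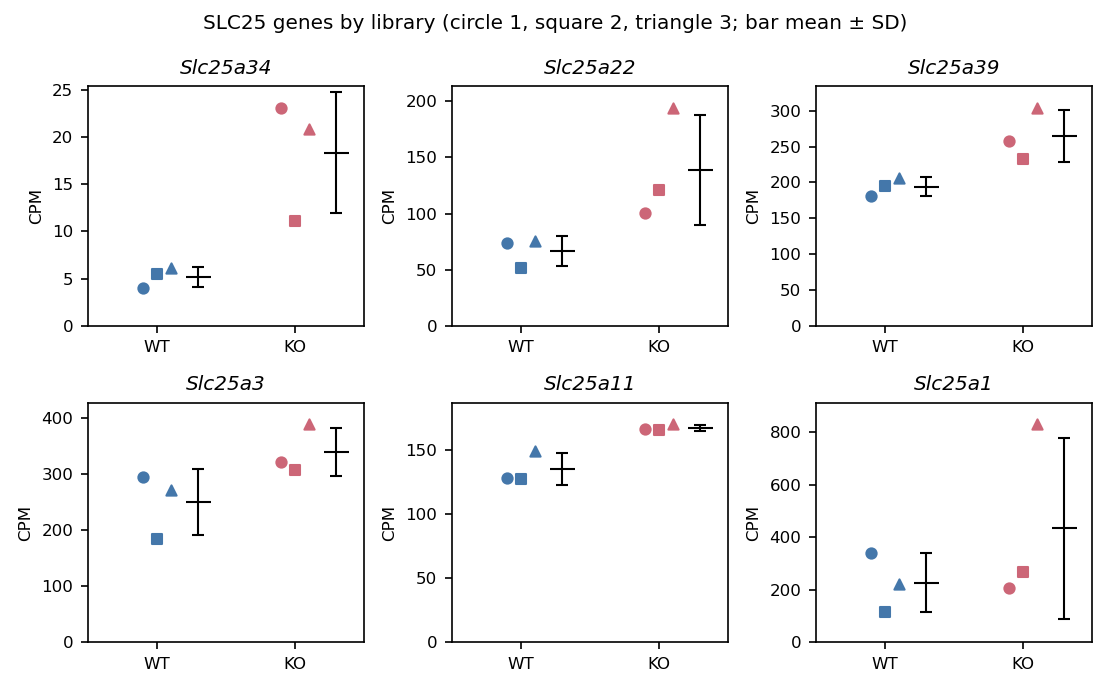
CPM by library (linear axes from 0) for 6 members, with the mean and SD of each group. The groups do not overlap for Slc25a34, Slc25a22, Slc25a39, Slc25a3 and Slc25a11, while for Slc25a1 KO 1 and KO 2 lie among the WT libraries and KO 3 stands at 830.

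The next largest difference was that of Slc25a22, a glutamate carrier. Slc25a22 and Slc25a18 encode the GC1 and GC2 proteins, which bring glutamate into the matrix together with a proton. The WT libraries had 73.7, 51.8 and 75.5 CPM of Slc25a22, and the KO libraries 101, 121 and 194 CPM. All KO libraries were above all WT libraries, with KO 3 far above the other KO libraries and WT 2 lowest. The means were 67.0 ± 13.2 and 139 ± 49.1 CPM (SD, n = 3 each), a difference of 1.05 in log2 (SE 0.26). It did not pass with edgeR (adjusted p = 0.309) and passed with DESeq2 (adjusted p = 0.0200). With WT 2 and KO 3 both left out it was 0.58 on the log2 scale (edgeR adjusted p = 0.382), and with single libraries left out it ran from 0.73 to 1.24. The gene (ENSMUSG00000019082.18) lies on chromosome 7 from 141429744 to 141437892 (mm10). Of 32 tested genes within 0.5 Mb, 1 was higher and 2 lower at an unadjusted p under 0.05. Slc25a18 counts were 25, 0 and 11 in the WT libraries, against 16, 10 and 17 in the KO libraries, and 32 bases of its exons overlap Atp6v1e1, a far more abundant gene on the opposite strand. The log2 fold change of Slc25a18 was 0.50 (SE 0.85, edgeR adjusted p = 0.812), and -0.18 with WT 2 and KO 3 both left out. The coding sequence of Slc25a18 is 68.1% identical to that of Slc25a22. In RPKM, Slc25a22 exceeded Slc25a18 at least 23.3-fold in the 5 libraries with a Slc25a18 count.

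The aspartate/glutamate carriers Slc25a12 (aralar) and Slc25a13 (citrin), which serve the malate-aspartate shuttle that brings NADH equivalents into mitochondria, were low in this tissue. Slc25a12 was at 2.22, 1.73 and 2.91 CPM in WT and 4.64, 3.22 and 2.44 CPM in KO, and the groups overlapped. Its log2 fold change was 0.57 (SE 0.35, edgeR adjusted p = 0.513). Slc25a13 was at 1.05, 1.73 and 0.942 CPM in WT and 0.819, 1.46 and 0.244 CPM in KO (log2 -0.53, SE 0.60, edgeR adjusted p = 0.717). These rest on 26, 26 and 32 counts in the WT libraries, against 18, 34 and 5 in the KO libraries, and no direction could be seen at this depth. The enzymes of that shuttle and of the glycerol phosphate shuttle (6 genes) were more abundant, and 0 of them were called. Among them Gpd1, the cytosolic glycerol phosphate dehydrogenase, was at 1970 to 2719 CPM in WT and 2695 to 4837 CPM in KO (log2 0.61, SE 0.27, edgeR adjusted p = 0.423). Got2, the mitochondrial aspartate aminotransferase, stood at 24.5 to 35.3 CPM in WT and 15.3 to 24.9 CPM in KO (log2 -0.51, SE 0.22, edgeR adjusted p = 0.422). With WT 2 and KO 3 both left out the log2 values were 0.31 for Gpd1 and -0.17 for Got2.

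Among carriers of di- and tricarboxylates, 3 of 4 were tested, all 3 were positive and 0 were called. Slc25a1, the citrate carrier, exports citrate for fatty acid synthesis. The WT libraries had 340, 116 and 223 CPM, and the KO libraries 206, 269 and 830 CPM. WT 2 was lowest and KO 3 highest, and the other 4 libraries of the 2 groups overlapped. The difference of 0.94 in log2 (SE 0.53) did not reach the threshold (edgeR adjusted p = 0.478), fell to 0.064 without KO 3 and was -0.25 without both WT 2 and KO 3. With the other libraries left out 1 at a time it reached 1.36. Within groups its coefficient of variation was 77.3%, against 3.78% for Slc25a5, the most abundant member.

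Genes listed for the making of citrate and its use in fatty acid synthesis moved across libraries in the same way. Among those reported here Cs makes citrate and Acly splits it, and the others act in related steps. The 7 genes reported here (Cs, Acly, Acaca, Acacb, Fasn, Me1 and Acss2) were all lowest in WT 2 and highest in KO 3, a pattern shown by 13.8% of all genes tested. Acly, ATP citrate lyase, which splits the exported citrate, had 1226, 190 and 343 CPM in the WT libraries, against 357, 409 and 4138 CPM in the KO libraries. Of these 7 genes 0 were called. With WT 2 and KO 3 both left out, log2 fold changes of the other 6 ran from -0.19 for Acacb to -1.03 for Acly, and Cs was at 0.0056. Of the 42 members, 7 had WT 2 lowest and KO 3 highest, or 16.7%. These were Slc25a1, Slc25a3, Slc25a11, Slc25a15, Slc25a22, Slc25a35 and Slc25a45. The part of this library pattern in their KO to WT differences was not tested beyond leaving the 2 libraries out.

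**Figure D4:**
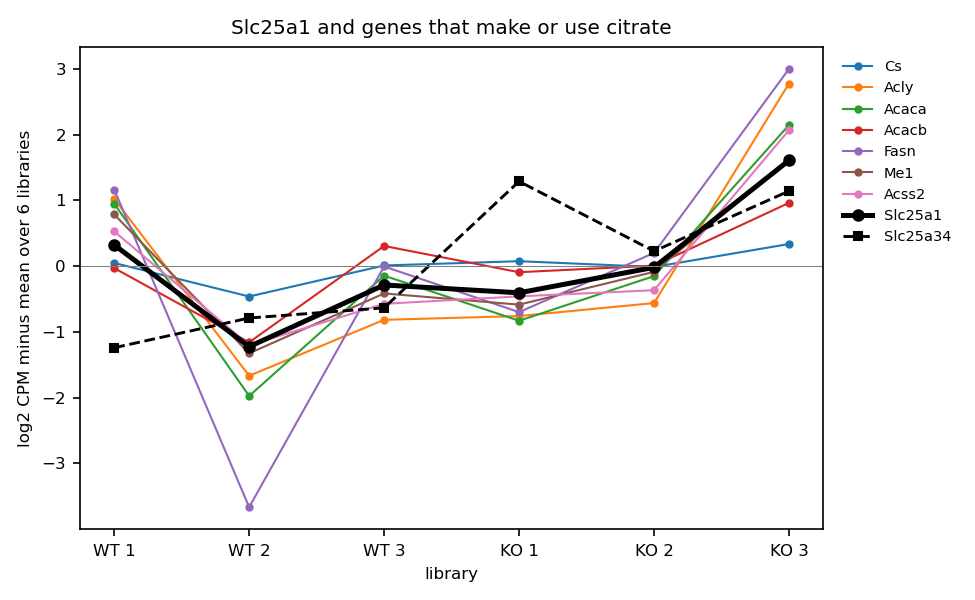
Log2 CPM minus its mean over the 6 libraries for Slc25a1 (thick line), Slc25a34 (dashed) and 7 genes listed for citrate and fatty acid synthesis. Lines only join the values of 1 gene. Slc25a1 follows the enzymes with its lowest point in WT 2 and its highest in KO 3, while Slc25a34 has its highest point in KO 1.

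Of the other members that carry organic acids, Slc25a11 and Slc25a10 varied less within groups than Slc25a1. Their coefficients of variation were 5.97% and 31.9%. Slc25a11, the oxoglutarate/malate carrier of the malate-aspartate shuttle, was at 128, 127 and 149 CPM in WT and 166, 165 and 170 CPM in KO. The groups did not overlap, but the difference of 0.31 in log2 (SE 0.16) did not reach the threshold (edgeR adjusted p = 0.462). It was 0.26 without both WT 2 and KO 3. Rnf167, on the opposite strand, overlaps 189 bases of its exons and had 6909 counts in all against 21106 for Slc25a11. Slc25a10, the dicarboxylate carrier, which swaps malate or succinate for phosphate, was at 7.19, 7.67 and 6.30 CPM in WT and 7.64, 11.1 and 15.9 CPM in KO. KO 1 lay within the WT range, and the difference of 0.71 in log2 (SE 0.28, edgeR adjusted p = 0.400) was 0.41 without KO 3. Of 48 tested neighbours within 0.5 Mb of Slc25a10, 8 were higher and 0 lower at an unadjusted p under 0.05. Of all genes 6.30% were higher and 5.49% lower. This was not particular to Slc25a10, as 8 of 38 neighbours of Slc25a42 were higher and 2 lower. Slc25a21, the oxodicarboxylate carrier, had 3 counts in all.

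Transcripts of the ADP/ATP carriers were in the main those of Slc25a5 (ANT2) and Slc25a4 (ANT1), whose proteins bring ADP into the matrix and ATP out. Slc25a5 had 199.8, 211 and 195 RPKM in the WT libraries, against 212, 201 and 216 RPKM in the KO libraries. Its mean was 202 ± 8.14 RPKM in WT and 209 ± 7.38 RPKM in KO (SD, n = 3 each) and ranked first in both groups. Slc25a4 had 121, 166 and 116 RPKM in the WT libraries, against 140, 129.8 and 144 RPKM in the KO libraries, with means of 134 ± 27.3 and 138 ± 7.31 RPKM (SD, n = 3 each). For Slc25a5 the log2 fold change was 0.054 with an SE of 0.16 (edgeR adjusted p = 0.898). That of Slc25a4 was 0.039 with an SE of 0.19 (edgeR adjusted p = 0.942). The ratio of Slc25a4 to Slc25a5 in RPKM was 0.606, 0.786 and 0.597 in WT and 0.662, 0.645 and 0.668 in KO. WT 2 thus had the highest ratio and the KO values lay between those of WT. Coding sequences of this pair are 77.4% identical, the highest value of the pairs examined, so that reads may be shared. A processed pseudogene, Slc25a5-ps, had 27 counts in all. Slc25a31 (ANT4), known from testis, was counted 36, 3 and 23 times in the WT libraries, against 0, 39 and 5 times in the KO libraries (log2 -0.30, SE 1.07). Those values varied widely within each group.

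The phosphate carrier Slc25a3 supplies phosphate for ATP synthesis. It was at 294, 183 and 271 CPM in WT and 321, 307 and 388 CPM in KO, with no overlap. The difference of 0.44 in log2 (SE 0.22, edgeR adjusted p = 0.447) was 0.15 without both WT 2 and KO 3, the lowest and highest libraries. The ATP-Mg/phosphate carriers, which are regulated by calcium, were led by Slc25a23, at 148 to 175 CPM in WT and 171 to 204 CPM in KO (log2 0.22, SE 0.17, edgeR adjusted p = 0.585). Slc25a24 and Slc25a25 were at 3.47 to 8.28 CPM in all libraries and did not pass (log2 -0.36 and -0.17). That of Slc25a24 was -0.098 with WT 2 and KO 3 both left out, and that of Slc25a23 was 0.13. Slc25a41 had 0 counts in all libraries, which allows up to 0.0892 to 0.166 CPM per library.

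Slc25a39 and Slc25a40 bring glutathione, the main thiol antioxidant, into mitochondria. Slc25a39 was at 181, 195 and 207 CPM in WT and 258, 233 and 304 CPM in KO. No KO library fell within the WT range, and the spread within WT was small. Means were 194 ± 13.0 and 265 ± 36.1 CPM (SD, n = 3 each), a ratio of 1.37. The difference of 0.45 in log2 (SE 0.18) did not reach the threshold (edgeR adjusted p = 0.401, DESeq2 0.313) and was 0.34 without both WT 2 and KO 3. Slc25a39 (ENSMUSG00000018677.9) lies on chromosome 11 from 102402985 to 102407946 in mm10, and 0 of its 23 tested neighbours within 0.5 Mb had an unadjusted p under 0.05. Slc25a40 was at 8.42 to 11.4 CPM in WT and 9.87 to 13.3 CPM in KO (log2 0.11, SE 0.22, edgeR adjusted p = 0.834). Per length Slc25a39 exceeded Slc25a40 by 49.3-fold to 93.7-fold, and the ratios of the 2 groups overlapped.

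Carriers of cofactors made up 26.6 ± 2.14% of the summed RPKM in WT, against 24.2 ± 3.11% in the KO group (SD, n = 3 each), and 0 of 7 tested genes were called. Slc25a51, which imports NAD+, was the most abundant of them. It had 93.2, 112 and 134 RPKM in the WT libraries, against 116, 124 and 116 RPKM in the KO libraries. Its mean was 113 ± 20.3 RPKM in WT and 119 ± 4.64 RPKM in KO (SD, n = 3 each) with a difference of 0.072 in log2 (SE 0.20, edgeR adjusted p = 0.885). Slc25a42, a coenzyme A carrier, was at 360, 312 and 462 CPM in WT and 521, 458 and 511 CPM in KO. Only KO 2 lay below the highest WT library, WT 3, and the difference of 0.39 in log2 (SE 0.20) did not reach the threshold (edgeR adjusted p = 0.453). It was 0.25 with WT 2 and KO 3 both left out. Slc25a17, which sits in the peroxisomal membrane, had 24.2, 21.1 and 27.1 RPKM in the WT libraries, against 28.3, 29.7 and 28.7 RPKM in the KO libraries, without overlap (log2 0.26, SE 0.16, edgeR adjusted p = 0.508). Slc25a32 and Slc25a26 leaned the other way. Slc25a32, linked to folate and FAD, was at 63.1, 44.9 and 41.0 CPM in WT and 38.0, 34.5 and 42.5 CPM in KO (log2 -0.37, SE 0.20, edgeR adjusted p = 0.464). Slc25a26, which imports S-adenosylmethionine, had WT 2 at 33.4 CPM and the other 5 libraries at 19.6 to 23.8 CPM. Its log2 fold change of -0.37 (SE 0.21) was -0.13 without WT 2. Exons of Slc25a26 overlap Lrig1 on the opposite strand over 144 bases. Slc25a16 was at 78.0 to 88.8 CPM in WT and 79.7 to 91.6 CPM in KO (log2 0.060, SE 0.15).

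**Figure D5:**
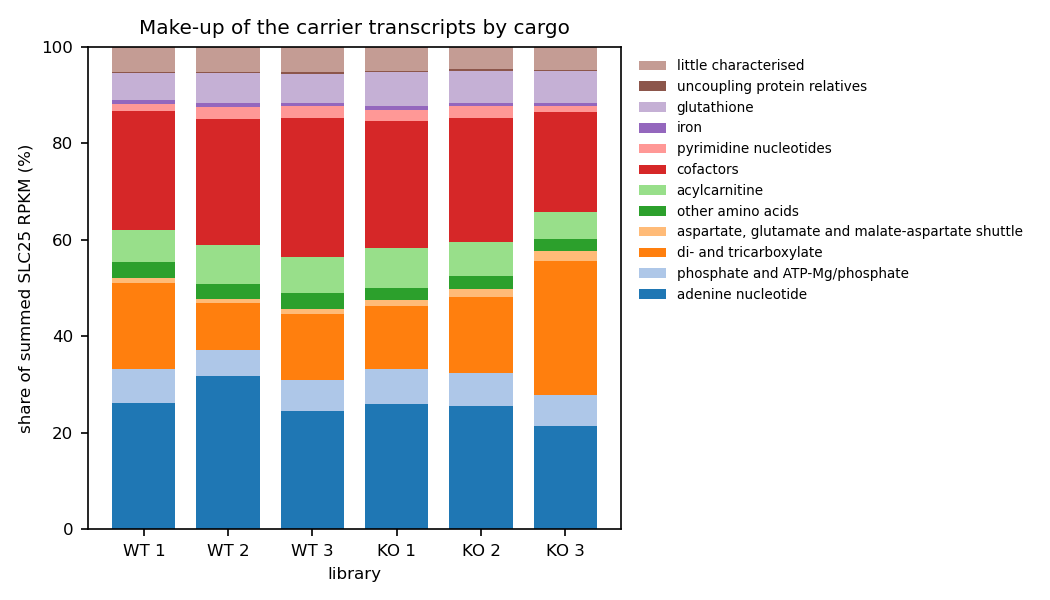
Share of the summed SLC25 RPKM taken by each cargo group in each library (bars from 0 to 100%). Adenine nucleotide carriers take 21.4% to 31.8%, and the di- and tricarboxylate share is widest in KO 3 (27.8%) and narrowest in WT 2 (9.79%).

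Slc25a20, the carnitine/acylcarnitine carrier that brings fatty acids to oxidation, was at 402, 464 and 465 CPM in WT and 550, 446 and 465 CPM in KO. The groups overlapped (log2 0.13, SE 0.18, edgeR adjusted p = 0.758). Around it, 7 of 7 genes of the carnitine shuttle were positive, where 49.8% of all genes were. Their median log2 fold change was 0.37, and 0 were called. Of these 7 genes 3 were lowest in WT 2 and highest in KO 3, a pattern of 13.8% of all genes. Cpt1b, the muscle and brown fat isoform of the outer membrane enzyme, was at 4.89 to 6.67 CPM in WT and 8.16 to 12.4 CPM in KO (log2 0.68, SE 0.25, edgeR adjusted p = 0.385). Crat, carnitine acetyltransferase, was at 484 to 670 CPM in WT and 678 to 841 CPM in KO (log2 0.37, SE 0.20, edgeR adjusted p = 0.470), and its log2 value was 0.17 with WT 2 and KO 3 both left out. Slc25a20 stood below the median of that list.

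Among other amino acid carriers, Slc25a44 brings branched-chain amino acids into brown fat mitochondria. It was at 108, 97.5 and 104 CPM in WT and 70.5, 91.5 and 110 CPM in KO. KO 1 was lowest and KO 3 highest of all 6 libraries, and the difference of -0.19 in log2 (SE 0.19) did not reach the threshold (edgeR adjusted p = 0.687). It was -0.39 with WT 2 and KO 3 both left out. Of 8 genes listed for the oxidation of these amino acids, 6 were positive, where 49.8% of all genes were. Their median log2 fold change was 0.27, and 0 were called. The list holds regulators beside the enzymes of breakdown, so its counts give no direction for breakdown. Bckdk, the kinase that inhibits the branched-chain dehydrogenase, was at 93.3 to 103 CPM in WT and 113 to 149 CPM in KO (log2 0.40, SE 0.17, edgeR adjusted p = 0.418). Slc25a15, an ornithine carrier, was at 14.7 to 18.5 CPM in WT and 17.3 to 22.7 CPM in KO. Slc25a38, which supplies glycine for haem synthesis, was at 14.5 to 17.2 CPM and 16.6 to 19.8 CPM. Slc25a29, a carrier of basic amino acids, averaged 2.44 ± 1.33 CPM in WT, and 3.68 ± 1.27 CPM in the KO group (SD, n = 3 each). None of Slc25a15, Slc25a38 and Slc25a29 passed, with log2 fold changes of 0.29, 0.19 and 0.57. That of Slc25a15 was 0.12 with WT 2 and KO 3 both left out. Slc25a2, the other ornithine carrier, had 0 to 10 counts and was not tested.

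The mitoferrins Slc25a28 and Slc25a37 deliver iron for haem and iron-sulphur clusters. Slc25a28 was at 20.8 to 25.8 CPM in WT and 21.6 to 28.9 CPM in KO, and Slc25a37 at 20.5 to 25.4 and 20.1 to 25.8 CPM. Neither passed (log2 0.11, SE 0.18, and -0.015, SE 0.17). Slc25a28 exceeded Slc25a37 per length in each library, 1.46-fold to 2.30-fold. Slc25a37 is also the form of red blood cell precursors. Of 10 erythrocyte markers 7 were tested and 0 were called, with summed CPM of 756 to 923 in WT and 525 to 787 in KO. Their part in the level of Slc25a37 was not tested.

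The pyrimidine nucleotide carriers Slc25a33 and Slc25a36 were at 20.2 to 42.4 and 74.9 to 82.7 CPM in WT and at 31.7 to 44.2 and 61.1 to 81.9 CPM in KO. Their log2 fold changes were 0.21 (SE 0.27) and -0.11 (SE 0.17). For Slc25a33 the lowest library was WT 1, at 20.2 CPM, and the other 5 lay between 31.7 and 44.2 CPM.

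Relatives of the uncoupling proteins were scarce. Slc25a14, Slc25a27 and Slc25a30 together took 0.367 ± 0.0279% of the summed RPKM in WT, against 0.295 ± 0.0821% in the KO group (SD, n = 3 each). Slc25a14 was at 1.79 to 3.00 CPM in WT and 1.91 to 3.09 CPM in KO, and Slc25a27 averaged 2.9 ± 0.964 CPM in WT, with 3.45 ± 0.387 CPM in the KO group (SD, n = 3 each). The log2 fold changes of the pair were 0.092 and 0.24. Slc25a30 was at 12.4 to 13.3 CPM in WT and 9.37, 13.2 and 8.94 CPM in KO (log2 -0.30, SE 0.21, edgeR adjusted p = 0.549). Left without WT 2 and KO 3, Slc25a30 was at -0.17 and Slc25a27 at 0.039 in log2. Ucp1 itself lay at 1638 to 2853 CPM in WT and 3765 to 5974 CPM in KO (log2 1.06, SE 0.28), which did not pass with edgeR (adjusted p = 0.310) and passed with DESeq2 (adjusted p = 0.00929). It was 0.67 in log2 with WT 2 and KO 3 both left out. Ucp2 lay at 143 to 177 CPM in WT and 41.7 to 49.3 CPM in KO and was called lower (log2 -1.80, SE 0.17, edgeR adjusted p = 0.00804). With 1 library left out the edgeR adjusted p of Ucp2 ran from 0.00971 to 0.0812. Over Ucp1, Ucp2 and Ucp3 the median log2 fold change was 0.53. Of the 3 genes 2 were positive, and only Ucp2 was called.

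Among members with little known cargo, Slc25a46, which lies in the outer membrane and is tied to mitochondrial shape, was at 125, 122 and 120 CPM in WT and 109, 113 and 94.8 CPM in KO. It was the 1 tested member with all KO libraries below all WT libraries, with a difference of -0.21 in log2 (SE 0.16, edgeR adjusted p = 0.570), or -0.14 with WT 2 and KO 3 both left out. Slc25a48, linked to choline uptake into mitochondria, was at 28.8, 23.0 and 22.9 CPM in WT and 16.6, 13.0 and 49.0 CPM in KO. KO 1 and KO 2 were below and KO 3 above all WT libraries. Its log2 fold change of 0.073 (SE 0.42) became -0.75 without KO 3 and -0.80 without both WT 2 and KO 3. Slc25a47, known from liver, was at 5.53, 9.61 and 9.06 CPM in WT and 4.73, 6.70 and 3.27 CPM in KO (log2 -0.71, SE 0.32, edgeR adjusted p = 0.424), and its log2 fold change was -0.35 with WT 2 and KO 3 both left out. Of 5 hepatocyte markers, 0 were at 0 counts and 0 were called. Alb, albumin, stood at 237, 412 and 242 CPM in WT and 206, 263 and 10.9 CPM in KO, and summed CPM of the list ran from 360 to 658 in WT and from 63.0 to 580 in KO. WT 2 was highest and KO 3 lowest for Alb as for Slc25a47, and the part of such RNA in the level of Slc25a47 was not tested. Slc25a45 was at 1.53 to 3.50 CPM in WT and 2.64 to 3.62 CPM in KO, and Slc25a53 at 2.15 to 4.20 and 2.27 to 3.37 CPM, with log2 fold changes of 0.35 and -0.34. That of Slc25a45 was 0.0073 with WT 2 and KO 3 both left out. Slc25a43 had 0 to 8 counts and Slc25a54 0 to 5 counts, and neither was tested.

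Carriers reach the inner membrane through the TOM pore, the small TIM chaperones and the TIM22 complex. Of 13 genes of that route 0 were called, 6 were positive and the median log2 fold change was near 0. Timm22, the channel of the complex, was at 16.6, 22.6 and 17.4 CPM in WT and 26.6, 24.5 and 25.8 CPM in KO (log2 0.44, SE 0.18, edgeR adjusted p = 0.403). Tomm40, the outer membrane pore, was at 40.3 to 53.8 CPM in WT and 63.6 to 86.7 CPM in KO (log2 0.65, SE 0.18, edgeR adjusted p = 0.330). Of 19 other mitochondrial transporters and pores 0 were called by edgeR, while 16 were positive and 7 had KO above WT without overlap, where 49.8% of all genes were positive and 10.1% lay above without overlap. Of these 19 genes 5 were lowest in WT 2 and highest in KO 3. Sfxn5, a sideroflexin linked to citrate transport, was at 46.7, 26.1 and 59.0 CPM in WT and 83.2, 73.0 and 130 CPM in KO (log2 1.12, SE 0.31, edgeR adjusted p = 0.324, DESeq2 0.0343). WT 2 was its lowest and KO 3 its highest library, and without both the log2 value was 0.57 (edgeR adjusted p = 0.403). Mpc2, a subunit of the pyruvate carrier, was at 292 to 364 CPM in WT and 366 to 532 CPM in KO (log2 0.40, SE 0.20, edgeR adjusted p = 0.453). With WT 2 and KO 3 both left out Mpc2 was at 0.15 in log2. The voltage-dependent channels Vdac1, Vdac2 and Vdac3 had log2 fold changes of -0.067, -0.047 and -0.24, and that of Vdac3 was -0.057 with WT 2 and KO 3 both left out.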

How the data were processed

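The table deposited by the authors holds whole-number counts for each gene, not normalized. Build mm10, the aligner HISAT2 2.1.0, the counter featureCounts 1.6.2 and DESeq2 are named in the submitters' processing notes. Which annotation was counted, and with which strand setting, is not given in the sources used here, so reads of genes that overlap on opposite strands could not be told apart. Per the labels' protocols, libraries were made from poly(A) RNA with a stranded kit. Columns for 3 WT and 3 KO libraries were matched to samples by title. KO replicate 4 was not analysed here.

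Identifiers were paired with symbols without their version (53620 of 53715), and exon lengths and positions came from GENCODE release M 21 on the same build. A filter on low counts (filterByExpr, minimum count 10 and total 15) left 15123 genes and 99.9% of counts. CPM values use TMM factors, but the floor given for Slc25a41 does not. The quasi-likelihood test of edgeR 4.0.16 (R 4.3.3, limma 3.58.1) had genotype as its single term. The p-values were adjusted by Benjamini-Hochberg over all genes, with a threshold of 0.05. The SE is the log2 fold change divided by the square root of its F. The test was tested on simulated data: in 3 draws of this comparison over 15123 genes, with 100 genes changed 2-fold and 100 changed 4-fold (mean of at least 1 CPM), 34.3% and 88.7% of them were called, and 8.21% of calls were genes left unchanged. Simulated counts were drawn independently for each gene and library. They lacked the deviation of WT 2 and KO 3 shared by many genes, so these shares may not hold for the real libraries. No pair of libraries was identical. Coding sequences were aligned with Biopython 1.88 under Python 3.11.15, pandas 2.3.3 built the tables and matplotlib 3.10.9 drew the plots. The floor given for Slc25a41 covers counting error only.

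The members, the cargo groups and the lists of other genes were chosen with earlier results of these data known. Here 1 tested member and 1 list gene are not reported, though counts and sums over the family include the member. The other members are accounted for, with values in every library for those at an unadjusted p under 0.05, those without overlap between the groups and the most abundant. Sfxn5, Tomm40, Timm22 and other list genes named singly were chosen after their values were seen. Slc25a54 was in no fixed cargo group. Alternatives were DESeq2 size factors, upper quartile factors, mitochondrial genome genes left out, no filter, a stricter filter (minimum count 30), DESeq2 1.42.0, limma-voom without and with sample quality weights, a robust fit, a replicate block, a threshold of 0.1, and libraries left out.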

Additional observations from a re-analysis of the deposited data

How the results depend on the processing

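Members called numbered 0 in each direction with each single library left out and under the other alternatives, except that 2 were called higher with DESeq2 and 3 (Slc25a34, Slc25a22 and Slc25a1) with edgeR without a filter. In that fit the median total degrees of freedom were 111496, against 9.61 in the reported fit, so those calls rest little on the spread of each gene. The members' median log2 fold change was 0.096 to 0.18 and positive members numbered 25 to 30 over the alternatives. Of all genes, 3 were called higher and 6 lower. These counts were 330 and 333 without a filter, 85 and 83 with DESeq2, 10 and 11 with sample quality weights, and 14 and 13 without both WT 2 and KO 3. With 1 library left out they ran from 0 to 9 in each direction. Replicate numbers are shared by the groups, but same-numbered libraries did not deviate together (correlations -0.114, 0.102 and 0.091). With a replicate block 1 gene was called higher and 4 lower.

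Signs of members that did not pass reversed as follows. With WT 2 and KO 3 both left out, log2 fold changes were -0.25 for Slc25a1, 0.20 for Slc25a13, -0.18 for Slc25a18, 0.14 for Slc25a25, -0.0062 for Slc25a35, 0.14 for Slc25a37 and -0.80 for Slc25a48. With sample quality weights it was 0.048 for Slc25a25, 0.068 for Slc25a37 and -0.60 for Slc25a48, which was also negative with limma-voom (-0.19) and with the replicate block (-0.18). With 1 library left out the ranges were -0.056 to 0.22 for Slc25a4, -0.17 to 0.36 for Slc25a14, -0.52 to 0.017 for Slc25a25, -2.68 to 0.46 for Slc25a31, -0.052 to 0.41 for Slc25a33, -0.20 to 0.0052 for Slc25a36, -0.10 to 0.078 for Slc25a37, -0.023 to 0.20 for Slc25a40, -0.75 to 0.40 for Slc25a48 and -0.050 to 0.21 for Slc25a51. The cause was not tested. With 3 libraries against 3, changes of the size seen for most members could not be told from the spread between libraries.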
